A study of Homo sapiens with 8 samples.

Results

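Peaks of accessible chromatin that lay at the shared ends of neighbouring protein-coding genes were described here. A peak belonged to this class when it lay on an autosome and overlapped the 1 kb surroundings of an end of each of 2 or more different protein-coding genes, with gene ends from the RefSeq annotation of GRCh38.p14. By this rule 2549 of 129536 peaks were shared-end peaks, which is 2.04% of the 124687 autosomal peaks. Another 13510 autosomal peaks lay at the end of only 1 protein-coding gene and served for comparison as single-gene peaks.

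The assay was Omni-ATAC-seq: a transposase cuts open chromatin in isolated nuclei and leaves sequencing adapters there. All libraries came from HEK293 cells, a human embryonic kidney line, whose genotype is labelled eGFP-YAP (the titles give only HEK293). The series text describes serum starvation ahead of treatment. The 4 vehicle libraries were compared with 4 libraries from cells kept for 1 h with sorbitol at 0.2 M, a sugar alcohol that makes the medium hyperosmotic and shrinks cells. The vehicle libraries carry 0 h in their names, so by the names time and treatment differ together, although per the treatment protocol controls were collected alongside. Whether the 4 libraries of a group came from separate cultures is not given, so the p-values measure the spread between these libraries, which may be technical. How many clones of the modified line were used is likewise not given in the sources used here.

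Neighbouring genes often sit head to head, with their start sites on opposite strands and a short stretch of DNA between them. Such a bidirectional promoter is a single open region from which RNA polymerase II transcribes outwards in both directions. Bidirectional promoters are typically rich in CpG dinucleotides and poor in TATA boxes. They are known for housekeeping genes of DNA repair, mitochondria and chromatin, including replication-dependent histone genes. Neighbours can also meet tail to tail, where the ends of converging transcription units lie close together, or head to tail, where a gene ends shortly before the next one begins.

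Of the 2549 shared-end peaks, 2422 touched 2 genes and 127 touched 3 or more. They held 4415 of 19122 autosomal protein-coding genes, in 2328 different gene sets. For 215 of those sets 2 or more peaks were present, 436 peaks in all, so these peaks are not independent of each other. The strand of 15100 genes was known from RefSeq's promoter table, which settled the arrangement of 1898 shared-end peaks. Of these 1898, 1177 (62.0%) lay at starts on opposite strands. The description of the class as mostly bidirectional promoters held for them: 860 were divergent starts with no overlap of the genes, and 317 were opposite-strand starts whose genes overlapped. A further 119 lay at 2 starts on the same strand, 470 at the start of one gene and the end of another, 118 at ends on opposite strands and 14 at ends on the same strand. The remaining 651 held a gene of unknown strand. Across all arrangements, 108 peaks held a readthrough gene, recognised by a name that joins those of 2 other genes. Of the member genes, 3675 had a promoter sequence in that table.

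The promoters below show what such a region looks like at peaks that behaved differently. MMACHC, PSMD13, COL4A3, HSPE1 and BORA each face a divergent neighbour, whereas SLC18A3 starts downstream of CHAT on the same strand. Each sequence is the RefSeq promoter of GRCh38.p14, 300 bases on the plus strand from 250 bases before the start to 50 bases after it, so that the gene's own start is base 251. Capitals mark matches, on either strand, to 8 motifs that are listed with the promoter motifs further on.
MMACHC: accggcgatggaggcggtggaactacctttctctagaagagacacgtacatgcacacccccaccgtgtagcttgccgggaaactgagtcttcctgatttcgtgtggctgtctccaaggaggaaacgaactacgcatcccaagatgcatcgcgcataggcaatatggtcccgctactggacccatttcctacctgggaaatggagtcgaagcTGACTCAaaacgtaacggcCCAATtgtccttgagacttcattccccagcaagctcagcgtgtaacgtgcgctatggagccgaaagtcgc
PSMD13: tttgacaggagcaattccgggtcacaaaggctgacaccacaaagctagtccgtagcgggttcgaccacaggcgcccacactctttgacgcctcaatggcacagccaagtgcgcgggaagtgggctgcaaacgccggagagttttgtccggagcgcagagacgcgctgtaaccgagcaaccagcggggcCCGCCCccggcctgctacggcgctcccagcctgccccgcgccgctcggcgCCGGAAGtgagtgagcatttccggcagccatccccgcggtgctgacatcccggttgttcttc
COL4A3: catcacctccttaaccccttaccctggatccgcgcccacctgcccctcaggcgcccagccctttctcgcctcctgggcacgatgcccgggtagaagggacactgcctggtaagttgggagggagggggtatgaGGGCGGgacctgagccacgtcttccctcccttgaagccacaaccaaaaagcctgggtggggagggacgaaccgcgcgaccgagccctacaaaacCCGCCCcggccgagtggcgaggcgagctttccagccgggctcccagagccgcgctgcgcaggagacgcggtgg
HSPE1: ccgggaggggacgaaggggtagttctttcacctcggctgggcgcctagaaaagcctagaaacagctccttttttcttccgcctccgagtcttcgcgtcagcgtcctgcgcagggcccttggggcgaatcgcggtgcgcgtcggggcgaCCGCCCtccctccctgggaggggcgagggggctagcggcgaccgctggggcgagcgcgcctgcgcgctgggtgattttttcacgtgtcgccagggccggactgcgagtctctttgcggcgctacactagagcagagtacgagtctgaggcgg
BORA: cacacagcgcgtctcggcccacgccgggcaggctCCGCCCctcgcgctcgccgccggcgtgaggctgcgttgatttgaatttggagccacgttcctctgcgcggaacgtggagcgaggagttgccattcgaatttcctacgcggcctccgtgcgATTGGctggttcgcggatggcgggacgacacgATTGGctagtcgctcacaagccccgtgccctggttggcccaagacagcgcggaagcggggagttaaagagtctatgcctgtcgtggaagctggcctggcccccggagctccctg
SLC18A3: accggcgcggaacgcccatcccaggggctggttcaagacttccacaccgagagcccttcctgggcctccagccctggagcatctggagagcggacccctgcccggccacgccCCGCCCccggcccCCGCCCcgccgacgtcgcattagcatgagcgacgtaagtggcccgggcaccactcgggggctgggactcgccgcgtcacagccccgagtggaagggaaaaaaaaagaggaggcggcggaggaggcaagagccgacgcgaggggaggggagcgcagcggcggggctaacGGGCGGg
The windows lie at chr1:45500050-45500349 (MMACHC), chr11:236726-237025 (PSMD13), chr2:227164374-227164673 (COL4A3), chr2:197500129-197500428 (HSPE1), chr13:72727673-72727972 (BORA) and chr10:49610060-49610359 (SLC18A3). In 3 of them the divergent neighbour's start in the same table falls inside the printed stretch, at base 24 for CCDC163 beside MMACHC, base 206 for SIRT3 beside PSMD13 and base 146 for HSPD1 beside HSPE1. The COL4A4 start in RefSeq's gene table, which was used for distances between starts, also falls inside the COL4A3 stretch, while its start in the promoter table does not. The G+C content ran from 54% at MMACHC to 72% at SLC18A3, with 20 CG dinucleotides at MMACHC and 35 at HSPE1 and BORA.

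Total counts per library ranged from 14757015 to 19831471 in the vehicle group and from 11522266 to 14355727 in the sorbitol group. Of 6 genes that mark HEK293 cells, 5 had a peak at an end, with a summed CPM, which is the count relative to the TMM-scaled library size, from 0 to 41.4 per gene. Of 10 genes that mark other cell types, 5 had one, with 0 to 22.6 (highest at SPI1). The ranges overlapped, and the labelled cell type could not be checked further from accessibility at gene ends. A shared-end peak held a mean of 11 to 2893 counts per library, with a median of 390. Their median width was 1137 bp, against 400 bp for all tested peaks.

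After sorbitol, accessibility fell at the majority of shared-end peaks. Of 2549 peaks, 1496 (58.7%) were lower at an adjusted p under 0.05, 81 (3.18%) were higher and 972 did not pass, by edgeR's quasi-likelihood test with Benjamini-Hochberg adjustment over all 129487 tested peaks. Over all tested peaks 29.1% passed, 13.1% as lower and 16.0% as higher. The median log2 fold change of sorbitol over vehicle was -0.33 at shared-end peaks, with the middle 50% between -0.53 and -0.13, against 0.01 over all tested peaks. The 113430 tested peaks in neither the shared-end nor the single-gene class had a median of 0.05, with 9.34% lower and 17.3% higher. They lay away from protein-coding gene ends or off the autosomes, where gene ends were not looked up. The values were modest in size: 39 shared-end peaks (1.53%) fell at least 2-fold and 4 (0.157%) rose at least 2-fold, against 0.881% and 5.27% of all tested peaks. In 1398 shared-end peaks (54.8%) all 4 sorbitol libraries lay below all 4 vehicle libraries, against 12.6% of all tested peaks, and in 2.63% they all lay above, against 13.7%. The split between directions depended on the scaling. With scaling factors taken from peaks at protein-coding gene ends, 841 peaks were lower and 304 higher, and with a loess correction for count level 1088 were lower and 222 higher. With library totals 1263 were lower and 125 higher. Under these scalings the peaks called lower were not a majority of the 2549, although the median change stayed negative.

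Single-gene peaks were lower too, by less. They had a median of -0.18, with 36.5% lower and 7.11% higher. Each shared-end peak was then matched to the single-gene peak nearest in mean count. The 2549 matched peaks had a median of -0.19, with 1036 (40.6%) lower and 162 (6.36%) higher, a gap of -0.140 between the 2 medians on the log2 scale. All 4 sorbitol libraries lay below all 4 vehicle libraries in 38.9% of the matched peaks.

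**Figure D1:**
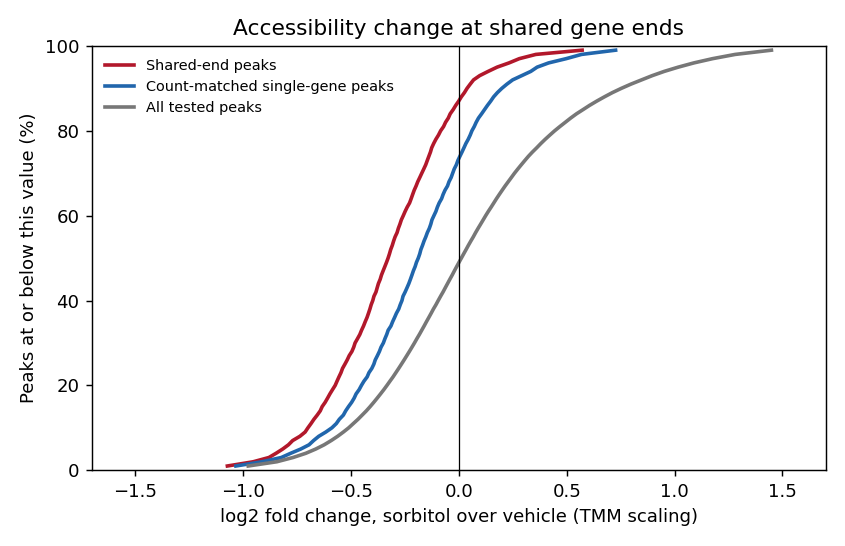
Cumulative share of peaks, in percent, against the log2 fold change of sorbitol over vehicle, for shared-end peaks, single-gene peaks matched on mean count, and all tested peaks. The shared-end curve lies to the left, with its median at -0.33 against -0.19 for the matched peaks and 0.01 for all tested peaks.

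The gap was present at every count level. Shared-end peaks were divided by mean count into 5 bins of equal size. In the bin with the lowest counts the median was -0.38, against -0.15 for single-gene peaks in the same count range. In the bin with the highest counts it was -0.28 against -0.16. The share called lower was 41.0% in the lowest bin and between 59.0% and 66.5% in the other 4, while single-gene peaks ran from 20.5% to 47.8%.

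The same comparison could be made library by library. Shared-end peaks took 8.43%, 8.54%, 8.29% and 8.03% of all counts in vehicle libraries 1 to 4, and 7.00%, 7.25%, 6.95% and 7.40% in sorbitol libraries 1 to 4. The matched single-gene peaks took 8.05% ± 0.123 of counts with vehicle and 7.50% ± 0.281 with sorbitol (SD, n = 4 each). The log2 ratio of shared-end to matched counts was 0.069, 0.067, 0.028 and 0.026 in the vehicle libraries. In the sorbitol libraries it was -0.044, -0.069, -0.076 and -0.083. Every sorbitol library therefore lay below every vehicle library, with means of -0.068 and 0.048 and a difference of -0.116.

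**Figure D2:**
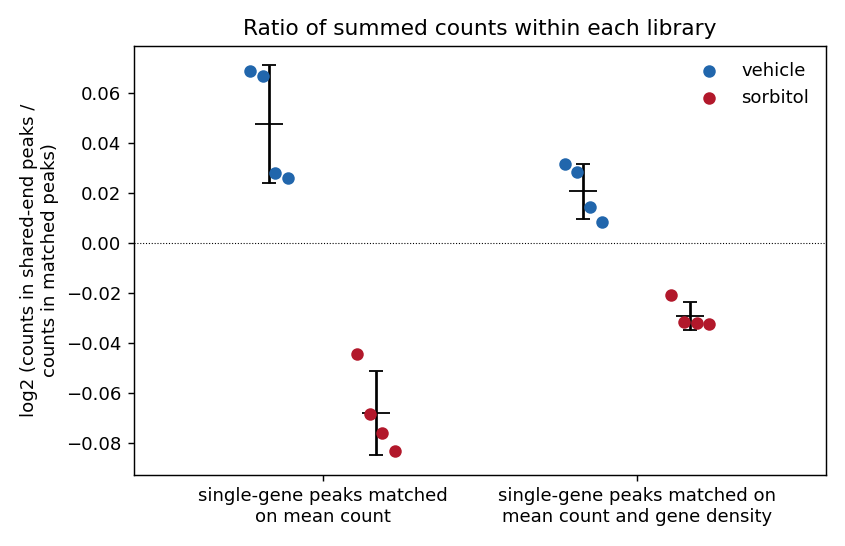
Log2 ratio of counts at shared-end peaks to counts at single-gene peaks for each of the 8 libraries, with peaks matched on mean count (left) or on mean count and gene density (right); bars show the group mean and SD (n = 4). On the left the vehicle libraries lie between 0.026 and 0.069 and the sorbitol libraries between -0.083 and -0.044.

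Shared-end peaks lie in gene-rich stretches, and gene density moved with the fold change. A shared-end peak had a median of 4 other protein-coding genes within 100 kb, against 2 for the matched single-gene peaks. Among shared-end peaks with 0 to 2 such neighbours the median log2 fold change was -0.19 (808 peaks, 41.0% lower). It was -0.33 with 3 to 5 neighbours (748 peaks), -0.44 with 6 to 9 (579 peaks) and -0.46 with 10 or more (414 peaks, 71.0% lower). Single-gene peaks in the same 4 bins had medians of -0.10, -0.23, -0.35 and -0.38, so the shared-end median was lower within each bin. Counts were not matched in these bins, and shared-end peaks had the higher median mean count in each (490 against 319 with 0 to 2 neighbours). When peaks were matched on gene density as well as mean count, the single-gene median was -0.25 with 49.0% lower, and the gap shrank from -0.140 to -0.074. The library ratio kept its order under that matching: 0.0315, 0.0285, 0.0146 and 0.0086 with vehicle against -0.0209, -0.0316, -0.0319 and -0.0326 with sorbitol. The part of gene density in the fall itself was not tested.

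Chromosomes differed in the same way. The shared-end median was below the median of all single-gene peaks, not matched on count, on 22 of 22 autosomes. The gaps ran from -0.024 on chromosome 13 to -0.187 on chromosome 6. Chromosome 19, the most gene-dense autosome, held 249 shared-end peaks with a median of -0.58, against -0.50 for its single-gene peaks, and 76.7% of them were lower. Chromosome 22 had medians of -0.51 and -0.35. At the other end, chromosome 4 had -0.13 against -0.01. On chromosome 13, with 36 shared-end peaks, the medians were -0.13 and -0.10, and the share called lower was below that of single-gene peaks (16.7% against 23.0%). Matching within chromosomes left a gap of -0.093.

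**Figure D3:**
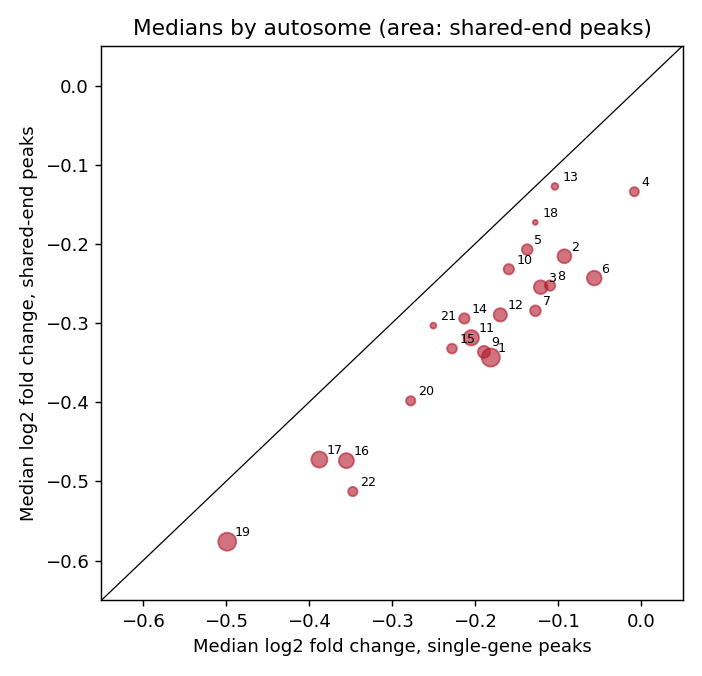
Median log2 fold change of shared-end peaks against that of all single-gene peaks (not matched on count), 1 point per autosome, with the area set by the number of shared-end peaks and a line of equal values. All 22 points lie below the line, from -0.13 on chromosomes 4 and 13 to -0.58 on chromosome 19 for shared-end peaks.

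By the arrangement of the genes, medians ran from -0.29 to -0.48. Divergent starts had a median change of -0.30 (log2), with 507 of 860 peaks (59.0%) lower and 18 higher. Opposite-strand starts with overlapping genes had -0.29 (172 of 317 lower, 11 higher) and same-strand starts -0.31 (66 of 119 lower, 7 higher). Peaks at a start and an end had -0.40, with 301 of 470 (64.0%) lower and 13 higher, and they had a median of 7 other genes within 100 kb against 3 for divergent starts. Ends on opposite strands had -0.48, with 60 of 118 lower and 3 higher, at a median mean count of 67.9 against 480 for divergent starts. Ends on the same strand, only 14 peaks, had -0.45 with 7 lower and 0 higher by edgeR. Peaks with a gene of unknown strand had -0.32, with 383 of 651 lower.

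Each arrangement was set beside its own matched single-gene peaks. Matched on mean count, the gap was -0.107 for divergent starts, -0.199 for start-and-end peaks and -0.325 for opposite-strand ends. With gene density added to the matching these gaps were -0.079, -0.055 and -0.177. The gap of start-and-end peaks thus shrank more than that of divergent starts.

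**Figure D4:**
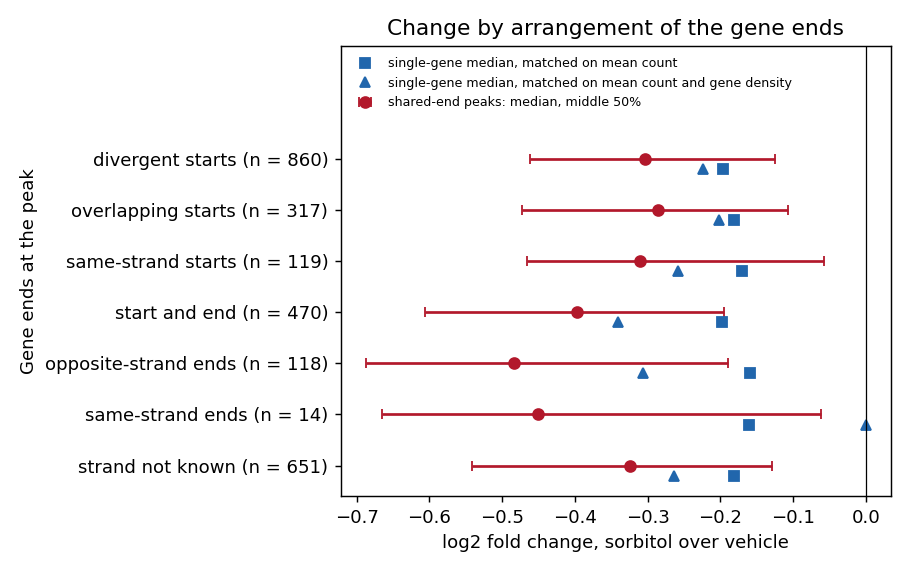
Log2 fold change of sorbitol over vehicle for shared-end peaks by gene arrangement (circles show the median, bars the middle 50%), with the medians of the single-gene peaks matched on mean count (squares) and on mean count and gene density (triangles). Each circle lies to the left of its square and triangle, with divergent starts at -0.30 and opposite-strand ends at -0.48.

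Divergent pairs are usually tight. Over the 860 divergent-start peaks the 2 starts lay 1 to 2263 bp apart, with a median of 180.5 bp, and at 641 peaks within 300 bp. A pair with more than 1 peak counts once for each peak. Peaks with starts 1 to 100 bp apart had a median change of -0.28 on the log2 scale (203 peaks, 52.7% lower). Those with starts 101 to 200 bp apart had -0.27 (270 peaks, 55.2% lower). At 201 to 300 bp the median was -0.36 (168 peaks, 66.1% lower), at 301 to 500 bp -0.34 and beyond 500 bp -0.34 (100 peaks, 64.0% lower). The spread within each bin was wider than these differences.

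The promoter sequences of divergent pairs were searched for 8 motifs on both strands. The share with a match is given for 1430 promoters of divergent pairs, 6925 promoters of single-gene starts and all 15100 promoters, each 300 bases long. The 2 windows of a close pair overlap, so they share sequence. CCGGAAG, a site of ETS-family factors such as GABPA, was in 30.2% of divergent-pair promoters, 17.2% of single-start promoters and 14.4% of all promoters. GCGCATGC, the core of the site of NRF1, an activator of nuclear genes for mitochondria, was in 8.32%, 5.34% and 4.19%. AAGATGGCG, a site of YY1, was in 6.15%, 3.73% and 2.80%. CCAAT, the site of NF-Y, was in 42.9%, 36.2% and 36.0%, and GGGCGG, the GC box of Sp1, in 74.8%, 73.9% and 58.9%. The TATA box TATAAA was in 3.43%, 5.65% and 9.71%. The cAMP response element TGACGTCA was in 3.78%, 3.70% and 2.65%, and the AP-1 site TGANTCA in 2.80%, 3.86% and 5.70%. A match is a string of letters and not a measured binding site, and some motifs can share bases.

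Of the 860 divergent-start peaks, 780 overlapped the promoter window of a gene of theirs and could be split by motif. A match in any such window counted, and peaks can differ in how many windows were searched. The 258 peaks with a CCGGAAG match had a median change of -0.34 (log2) and 68.2% were lower. The 522 without it had a median of -0.27 and 56.7% lower. The share lower with and without a match was 68.9% and 59.8% for AAGATGGCG, 64.2% and 57.0% for CCAAT, 62.0% and 54.1% for GGGCGG, and 59.7% and 60.6% for GCGCATGC. It was 45.7% and 61.2% for TATAAA (35 peaks with a match), 54.5% and 60.8% for TGACGTCA (33 peaks) and 54.8% and 60.7% for TGANTCA (31 peaks). Among the printed promoters PSMD13 holds 1 CCGGAAG match, and MMACHC, at a peak that fell more, holds 0. By G+C content of the promoter, shared-end peaks below 50% G+C had a median of -0.21 (62 peaks), and the 4 bins from 50% upwards had medians between -0.36 and -0.30. Single-gene peaks had -0.10 below 50%, -0.27, -0.23 and -0.22 in the middle bins, and -0.14 at 70% or more. Matching on G+C in addition to mean count, possible for 1770 members, left a gap of -0.133.

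Among the 8 shared-end peaks that fell with the smallest p-values, the steepest lay at an end of a translation factor gene. A peak at EIF3G, P2RY11 and the readthrough gene PPAN-P2RY11 (chr19:10114022-10115141) had 22.0, 22.8, 24.0 and 22.9 CPM with vehicle and 8.25, 10.3, 9.46 and 8.11 CPM with sorbitol. The groups were far apart, and the log2 fold change was -1.35 (SE 0.11, edgeR quasi-likelihood, Benjamini-Hochberg adjusted p = 3.2e-14). P2RY11 ends beside this peak, whereas the strand of EIF3G was not known, so whether EIF3G starts or ends there was not settled. EIF3G encodes a subunit of the translation initiation factor eIF3, and P2RY11 a purinergic receptor that responds to extracellular ATP. At chr17:8119570-8120832, where ALOXE3 starts and HES7 ends, the libraries had 60.1, 62.6, 50.5 and 47.6 CPM with vehicle and 27.3, 27.5, 25.2 and 23.3 CPM with sorbitol. All sorbitol values lay below the lowest vehicle value, with a log2 fold change of -1.10 (SE 0.09, edgeR adjusted p = 7.07e-14). ALOXE3 encodes an epidermal lipoxygenase and HES7 a transcriptional repressor of the segmentation clock.

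The divergent pair MMACHC and CCDC163 (chr1:45499565-45500667), whose starts are 227 bp apart in the first sequence above, fell to a similar degree. MMACHC processes cobalamin inside the cell. The peak had 41.2, 47.0, 40.6 and 35.4 CPM with vehicle and 21.7, 20.8, 20.1 and 20.7 CPM with sorbitol. The sorbitol libraries were close together and below every vehicle library, with a log2 fold change of -0.98 (SE 0.09, edgeR adjusted p = 3.59e-12). At the start of LZTR1, an adaptor of a ubiquitin ligase, and the end of AIFM3 (chr22:20981681-20983171), vehicle libraries had 44.7, 45.2, 41.9 and 39.8 CPM and sorbitol libraries 20.7, 20.8, 18.6 and 24.7 CPM. The groups did not overlap, and the log2 fold change was -1.01 (SE 0.09, edgeR adjusted p = 1.18e-12).

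PRKAG1, which encodes a regulatory subunit of the energy sensor AMPK, starts where KMT2D, a histone H3 lysine methyltransferase, ends (chr12:49018018-49019133). Vehicle libraries had 47.5, 49.1, 48.5 and 43.2 CPM there and sorbitol libraries 23.5, 23.8, 22.9 and 28.9 CPM. Sorbitol library 4 stood above the other 3 but below all vehicle libraries, and the log2 fold change was -0.92 (SE 0.09, edgeR adjusted p = 8.47e-12). Among the same 8 peaks were those at VPS9D1 and the zinc finger gene ZNF276 (-0.95), at EME2, NUBP2 and SPSB3 (-0.87) and at AJM1 and RABL6 (-1.03), all with no overlap between the groups. NUBP2 encodes a factor of cytosolic iron-sulfur cluster assembly and EME2 a partner of the MUS81 nuclease.

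Fewer peaks rose. SLC18A3, the vesicular acetylcholine transporter, lies inside the cholinergic gene locus and starts 1215 bp downstream of CHAT, which makes acetylcholine. Their peak (chr10:49609701-49610775) had 10.0, 9.34, 10.4 and 10.7 CPM with vehicle and 17.3, 22.1, 14.7 and 18.3 CPM with sorbitol. Every sorbitol library was higher, with a log2 fold change of 0.84 (SE 0.11, edgeR adjusted p = 1.06e-07). The tubulin genes TUBA4A and TUBA4B (chr2:219253398-219254621) had 23.7, 24.2, 23.7 and 23.2 CPM with vehicle and 33.5, 38.3, 35.7 and 35.2 CPM with sorbitol. The groups were again separate, with a log2 fold change of 0.59 (SE 0.09, edgeR adjusted p = 5.26e-07).

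NPY1R and NPY5R, receptors of the appetite peptide neuropeptide Y, share a peak at chr4:163343427-163344939. It had 18.5, 18.0, 20.4 and 19.9 CPM with vehicle and 23.7, 29.1, 26.9 and 31.6 CPM with sorbitol. Every sorbitol library exceeded the vehicle libraries, and the log2 fold change was 0.54 (SE 0.09, edgeR adjusted p = 1.81e-05). TPI1, a glycolytic enzyme, starts where the deubiquitinase gene USP5 ends (chr12:6866970-6868259). There the vehicle libraries had 30.5, 31.8, 29.3 and 32.6 CPM and the sorbitol libraries 38.6, 42.1, 43.3 and 46.9 CPM, without overlap, for a log2 fold change of 0.46 (SE 0.08, edgeR adjusted p = 3.04e-05). The other 4 were at LRRIQ1 and TSPAN19 (0.59), GCOM1 and MYZAP (0.75), STON1 and its readthrough gene (0.57), and FAM114A1 and the innate immune receptor TLR6 (0.59). GCOM1 and MYZAP have the same boundary there and are not separate neighbours at this peak. The 4 peaks that rose at least 2-fold, named after their values were seen, all had low counts: DRC12/NHERF4 (1.36, mean count 24), ALLC/DCDC2C (1.35, mean count 14.2), CHRD/THPO (1.00, mean count 35.4) and DLL1/FAM120B (1.00, mean count 55.1).

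**Figure D5:**
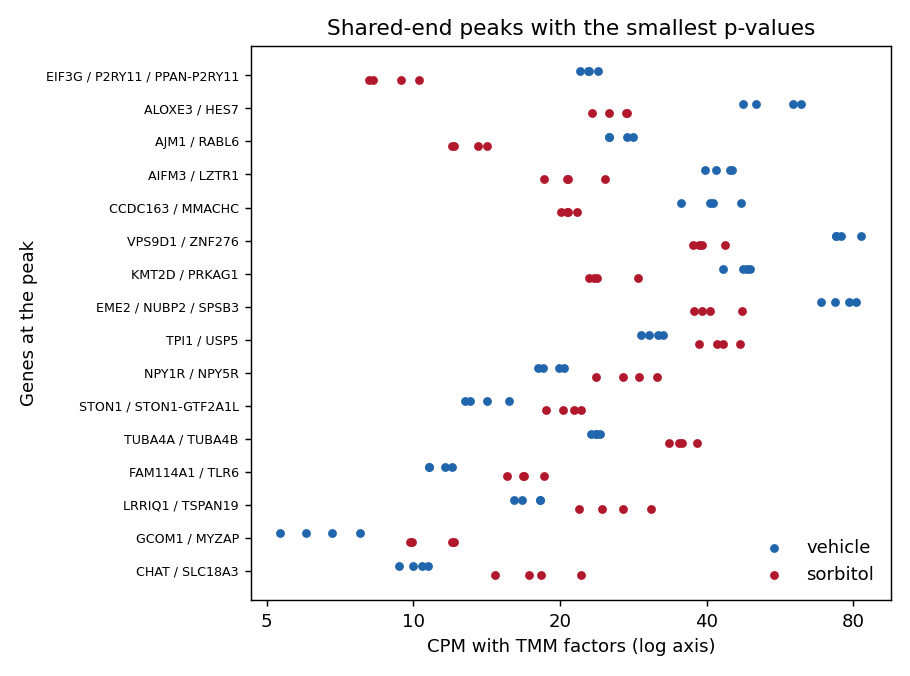
TMM-scaled CPM in each library, on a log axis, for the 8 shared-end peaks that fell and the 8 that rose with the lowest p-values. At EIF3G/P2RY11 the vehicle libraries lie between 22.0 and 24.0 and the sorbitol libraries between 8.11 and 10.3, whereas at CHAT/SLC18A3 they lie between 9.34 and 10.7 and between 14.7 and 22.1.

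Among the most accessible bidirectional promoters were some with little difference. BORA, an activator of the mitotic kinase Aurora A, and MZT1, a component of microtubule nucleation complexes, start 294 bp apart at chr13:72726936-72728331, one of the 4 shared-end peaks with the highest counts. The vehicle libraries had 151.6, 147.4, 162.9 and 154.2 CPM and the sorbitol libraries 147.8, 151.4, 148.3 and 162.1 CPM. The groups overlapped throughout, and the log2 fold change was -0.01 (SE 0.07, edgeR adjusted p = 0.904). With scaling from gene-end peaks, and with the loess correction, this peak passed as higher, at 0.20 (edgeR adjusted p = 0.00517) and 0.22 (edgeR adjusted p = 0.00236). CEP170 and SDCCAG8, both centrosomal genes (chr1:243254816-243256357), had 215.9, 214.3, 217.9 and 195.1 CPM with vehicle and 170.2, 181.4, 177.8 and 195.0 CPM with sorbitol. Vehicle library 4 and sorbitol library 4 met there, and the log2 fold change was -0.22 (SE 0.07, edgeR adjusted p = 0.0152). That call was lost without vehicle library 1 and without vehicle library 3, at log2 fold changes of -0.21 and -0.20, and under 4 other scalings or filters the value moved to between -0.14 and 0.03. The peak of PDCD10 and SERPINI1 had -0.13 (edgeR adjusted p = 0.188). The peak of FAM72B and SRGAP2C had -0.43, but both genes have near-identical copies, so how reads were divided between copies is uncertain.

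A list of 23 well-known divergent pairs was looked up by name, and 20 had a shared-end peak. Of those 20, 14 were lower, 2 were higher and 4 did not pass, with a median of -0.41. PSMD13, a subunit of the proteasome lid, and SIRT3, the mitochondrial deacetylase, start 45 bp apart at chr11:235932-237252. That peak had 37.0, 39.9, 35.5 and 37.4 CPM with vehicle and 20.6, 25.4, 20.2 and 20.5 CPM with sorbitol. Sorbitol library 2 was the highest of its group and still below all vehicle libraries, with a log2 fold change of -0.79 (SE 0.09, edgeR adjusted p = 1.73e-09). Other falls were at SURF1/SURF2 (-0.58), MRPS12/SARS2 (-0.59), RANBP1/TRMT2A (-0.58), SMCR8/TOP3A (-0.56), HADHA/HADHB (-0.42), PSMB9/TAP1 (-0.41) and FEN1/TMEM258 (-0.38). They cover cytochrome oxidase assembly, mitochondrial translation, fatty acid oxidation, antigen processing and DNA replication. With scaling from gene-end peaks the calls were lost at HADHA/HADHB (-0.21), FEN1/TMEM258 (-0.17), FAHD1/HAGH (-0.17) and IGBP1C/RAD51C/TEX14 (-0.19). The smallest called fall was at BRCA2/ZAR1L (-0.23). It did not pass with scaling from gene-end peaks (-0.015), the loess correction (-0.050), a mean count of at least 50 (-0.136) or library totals (-0.146). The call was also lost without vehicle library 1, 2 or 3 (-0.23, -0.22 and -0.21), without sorbitol library 3 (-0.22) and with the replicate number as a block (adjusted p = 0.0511).

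HSPD1 and HSPE1, the mitochondrial chaperonin and its co-chaperonin, start 105 bp apart (chr2:197498838-197500649). Their peak had 66.4, 66.6, 63.0 and 66.3 CPM with vehicle and 62.6, 67.0, 67.1 and 79.6 CPM with sorbitol. Sorbitol library 1 lay below every vehicle library and the other 3 lay above, sorbitol library 4 the furthest, and the log2 fold change was 0.08 (SE 0.08, edgeR adjusted p = 0.506). Without sorbitol library 4 it was -0.01. With scaling from gene-end peaks, and with the loess correction, this peak passed as higher, at 0.29 and 0.28. ATM/NPAT (-0.19, edgeR adjusted p = 0.0622) and COL4A1/COL4A2 (-0.17, edgeR adjusted p = 0.174) also did not pass. ATM/NPAT passed as lower without vehicle library 4 (-0.21) or sorbitol library 4 (-0.25).

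Of the 2 pairs that rose, 1 was the other collagen IV pair. COL4A3 and COL4A4, chains of the basement membrane collagen of kidney glomeruli, start 136 bp apart at chr2:227163658-227165331. The peak had 30.2, 28.4, 31.6 and 29.8 CPM with vehicle and 35.2, 37.4, 37.1 and 38.7 CPM with sorbitol. Every sorbitol library was above every vehicle library, with a log2 fold change of 0.31 (SE 0.08, edgeR adjusted p = 0.00395). Of 3 convergent pairs on the list, 1 was covered: the peak at ERCC1, POLR1G and PPP1R13L (-0.63) lay at the divergent starts of PPP1R13L and POLR1G.

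Gene groups with many shared ends were counted by gene name, and 58.7% lower over all shared-end peaks is the figure to read them against. Zinc finger genes, a family of mostly DNA-binding repressors clustered on chromosome 19, had 75 shared-end peaks with 54 lower and 0 higher by edgeR and a median of -0.49. ZNF461/ZNF567 had -1.25 and ZNF568/ZNF829 -1.20, both divergent pairs. The 418 single-gene peaks of the same family had a median of -0.55. Mitochondrial ribosome genes had 45 peaks, 31 lower and 1 higher, with a median of -0.36 (49 single-gene peaks, -0.38). HIRA/MRPL40 had -0.70 and APBA3/MRPL54 -0.83, and the peak that rose was MRPS6/SLC5A3 (0.35). SLC5A3 encodes a sodium-coupled inositol transporter, a known target of hyperosmotic stress.

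Respiratory chain genes and their assembly factors had 48 peaks, 30 lower and 0 higher by edgeR, with a median of -0.34 (64 single-gene peaks, -0.42). NDUFA11/VMAC had -0.72 and NDUFAF8/TEPSIN -0.66. Genes named as cytosolic ribosomal proteins (RPL or RPS) had 41 peaks, 24 lower and 2 higher, with a median of -0.40 (78 single-gene peaks, -0.29). The name does not separate ribosome subunits from related genes such as RPL7L1 (-0.86 with PEX39). The values ran from -1.02 at RPL7A/SURF1 to 0.65 at RPL17 and its readthrough gene. Genes named as proteasome subunits had 21 peaks, 16 lower and 0 higher by edgeR, with a median of -0.41 (41 single-gene peaks, -0.48). PSMD13/SIRT3 had -0.79 and FTSJ3/PSMC5 -0.76. The name rule also took in genes that are not subunits, such as the recombination factor PSMC3IP, PSME3IP1 and PSMG1. Aminoacyl-tRNA synthetases had 21 peaks, 16 lower and 0 higher by edgeR, with a median of -0.45 (24 single-gene peaks, -0.32). Of these, AARS1/EXOSC6 had -0.77.

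Genes named as chaperones held 7 of the rising peaks. Their 41 shared-end peaks had a median of -0.20, with 16 lower and 7 (17.1%) higher. The share higher was 3.18% over all shared-end peaks and 16.0% over all tested peaks. The 61 single-gene chaperone peaks had a median of -0.26, with 28 lower and 2 higher. The difference between those counts was not tested. The 7 that rose were DNAJC4/VEGFB (0.58), HSPA12A/SPMIP5 (0.45), DNAJC10/PDE1A (0.40), HSPBAP1/SLC49A4 with 2 peaks (0.35 and 0.24), DCDC1/DNAJC24 (0.25) and CCT4/COMMD1 (0.21). CCT4/COMMD1 (edgeR adjusted p = 0.0480) and the HSPBAP1/SLC49A4 peak at 0.24 (edgeR adjusted p = 0.0406) passed narrowly. The rising DNAJC4/VEGFB peak was weak, at 4.16 CPM with vehicle and 6.29 CPM with sorbitol. HSPBAP1, taken in by its name, encodes a protein that binds a small heat shock protein and is not itself a chaperone. Another peak at DNAJC4/VEGFB had -0.02 and did not pass. Among the 16 that fell were the small heat shock gene HSPB6 with PROSER3 (-0.74) and CCT3/TSACC (-0.69).

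Replication-dependent histone genes, which are packed in divergent pairs and transcribed in S phase, had 22 peaks with 12 lower and 0 higher by edgeR and a median of -0.21 (32 single-gene peaks, -0.19). At H2AC20/H2AC21/H2BC21 a peak with 41.9 CPM in the vehicle group had -0.76, and a stronger peak (73.0 CPM) had -0.51. At H2AC15/H2BC15 the weaker peak (24.5 CPM with vehicle) had -0.69. The stronger peak of that pair (55.8 CPM with vehicle) had 0.04 and did not pass (edgeR adjusted p = 0.753). Near-identical histone copies make the division of reads between them uncertain. HOX genes had 7 peaks, 3 lower, with a median of -0.14, whereas their 40 single-gene peaks had -0.33, with 23 lower. HOXB3/HOXB5 had -0.34. The call at HOXB3/HOXB5 was lost under scaling from gene-end peaks and under the loess correction. Protocadherin genes had 3 peaks with a median of -0.11, none of which passed by edgeR (26 single-gene peaks, -0.10). The peak with the most genes was the shared 3' end of 22 protocadherin gamma transcription units at chr5:141512303-141512738. It had 4.82 ± 0.493 CPM with vehicle and 4.48 ± 0.525 CPM with sorbitol (SD, n = 4 each), and its log2 fold change of -0.11 was within the spread (edgeR adjusted p = 0.669).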

How the data were processed

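Omni-ATAC-seq had been done on 4 vehicle and 4 sorbitol libraries. The authors deposited raw counts, 1 table of whole numbers for 129536 peaks. Whether reads or fragments were counted, and how peaks were called and merged, is not given in the sources used here. The submitters' processing notes name Trim Galore 0.6.10, BWA 0.7.17, SAMtools 1.22, Picard, MACS2 2.2.9.1, bedtools and DESeq2, with hg38, and state no roles. Columns were matched to libraries by the group and number in their names.

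Starts in the table count from 0 (6 peaks start at 0), so 1 was added. Gene ends came from RefSeq's table of GRCh38.p14 and strands from its promoter table. The filter of edgeR 4.0.16 (filterByExpr, 10 counts per library and 15 in total, in R 4.3.3) removed 49 peaks and left 129487, with all 2549 shared-end peaks among them. All 8 libraries entered 1 quasi-likelihood fit with TMM scaling and no covariate, with Benjamini-Hochberg adjustment over all tested peaks. CPM values are counts relative to TMM-scaled library size, and an SE is the log2 fold change divided by the root of its F statistic. Single-gene peaks were matched without replacement on mean count. No test was made over the shared-end peaks as a list. On simulated data with 200 of 129487 peaks changed 2-fold, the fit recovered 131 and made 10 false calls. The simulation had a fixed dispersion and as many rises as falls at few peaks. It therefore does not give error rates for the broad changes in these data.

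The members and lists were chosen with earlier results of these data known. Named peaks are the 8 with the smallest p in each direction, the 4 with the highest counts, the textbook pairs, the peak with the smallest p of each gene group and the peak with the most genes, 49 in all. Alternatives were other scalings, DESeq2 1.42.0, other filters, thresholds, end distances and matchings, and each library left out. The matchings on gene starts, chromosome, gene density and promoter G+C were added after the data were seen. The values of 2 of the textbook pairs are not reported here.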

Additional observations from a re-analysis of the deposited data

Results flagged for a closer look

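Of 102 groups of 4 libraries, from the named peaks, the share of counts at shared-end peaks and the log2 ratio to matched peaks, 6 held 1 library far from the other 3, where chance gives about 5.1. All 6 were at named peaks. In TMM-scaled CPM, sorbitol library 4 was at 28.85 at KMT2D/PRKAG1, with the others between 22.9 and 23.8, and at 40.19 at HIRA/MRPL40, with the others between 33.1 and 33.9. Sorbitol library 2 was at 25.43 at PSMD13/SIRT3, against 20.2 to 20.6 in the others. In the vehicle group, library 4 was at 195.1 at CEP170/SDCCAG8 (others 214.3 to 217.9), library 3 at 62.99 at HSPD1/HSPE1 (others 66.3 to 66.6) and library 2 at 17.65 at SURF1/SURF2 (others 15.8 to 16.1).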

How the results depend on the processing

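Shared-end peaks kept a lower median than single-gene peaks in every alternative run, and no shared-end peak that had passed was called in the opposite direction in any. With TMM scaling from protein-coding gene-end peaks, the median of all tested peaks moved from 0.01 to 0.22. The shared-end median was then -0.115 and the matched single-gene median 0.024, with 841 lower and 304 higher. Library totals gave medians of -0.246 and -0.106 with 125 higher, the loess offset -0.196 and -0.051 with 222 higher, and a mean count of at least 50 gave -0.236 and -0.099. The number higher was 38 at an adjusted p under 0.01. It was 51 among the 1686 peaks with ends within 250 bp and 52 among the 1770 that could be matched on promoter G+C. Those sets are smaller than the 2549 peaks of the main run, so these numbers are not shifts in share. The gap between medians was -0.093 within chromosomes, -0.074 with gene density and -0.067 with gene density within chromosomes. The log2 ratio of summed counts was then -0.0828, -0.0501 and -0.0489, and the matched median was -0.254 with density and -0.261 with density within chromosomes. The cause was not tested.

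With 1 library left out, 1386 to 1617 shared-end peaks were called, 1326 to 1549 lower and 53 to 73 higher, the lowest number higher without sorbitol library 4. The shared-end median was then -0.355 to -0.308, the matched median -0.225 to -0.174, the gap -0.150 to -0.130 and the log2 ratio -0.123 to -0.108. Libraries with the same number showed no visible shared deviation (correlations -0.133 to 0.00671). Whether they were handled together cannot be told from these correlations, because count noise could hide a shared deviation. With a replicate block, 1502 peaks were called, 1435 lower and 67 higher, with a median of -0.330, and among the named peaks only BRCA2/ZAR1L lost its call.

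Of 49 named peaks, 35 kept direction and call under all 17 settings run for them. The sign changed at peaks with small values. With scaling from gene-end peaks these were BORA/MZT1 (0.197), PDCD10/SERPINI1 (0.0859), ATM/NPAT (0.025), COL4A1/COL4A2 (0.0425), LOC124900844/PCDH7 (0.027) and the protocadherin gamma end (0.103). With the loess offset they were CEP170/SDCCAG8 (0.0251), BORA/MZT1 (0.222), PDCD10/SERPINI1 (0.109) and ATM/NPAT (0.0273). BORA/MZT1 was also at 0.0663 with library totals and 0.0765 with a mean count of at least 50. With 1 library left out BORA/MZT1 ran from -0.0576 (without sorbitol library 4) to 0.0132 (without vehicle library 3), and HSPD1/HSPE1 from -0.0103 (without sorbitol library 4) to 0.115 (without sorbitol library 1). In the bin with the lowest counts the middle 50% of log2 fold changes ran from -0.64 to -0.10, and counts there were 11 to 135.6 per library on average.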
